A study of Rattus norvegicus with 6 samples.

Results

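The mitochondrial ribosomal proteins were followed here as a group, in neonatal rat ventricular myocytes given compound 915 for 72 h. Members were all genes of the deposited table with a symbol that starts with Mrpl or Mrps followed by a digit, in any case. The table held 76 such rows, which are 74 genes of 21648 in all once repeated Ensembl identifiers were dropped. By symbol, 46 belong to the large subunit (Mrpl) and 28 to the small subunit (Mrps). The 915 group had 3 libraries from cultures given 10 µM of the compound, and the DMSO group had 3 libraries from cultures given that solvent alone for the same 72 h. All cultures were wild-type heart muscle cells from rat pups at postnatal day 3. They were pre-plated so that fibroblasts could attach and be left behind, seeded with serum and bromodeoxyuridine, and later moved to a medium with insulin, transferrin and selenium in place of serum. Pre-plating lowers the number of other heart cells and does not remove them all. The series title describes the study's compounds as agonists acting on the ERRs (estrogen-related receptors), transcription factors known for driving genes of mitochondrial energy metabolism. The labels name the libraries biological replicates, but whether each had its own cell isolation is not stated. The p-values therefore rest on the scatter among these libraries, part of which may be technical.

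Mitochondria carry their own ribosomes, which make only the few respiratory chain and ATP synthase proteins that mitochondrial DNA encodes. The ribosomal RNAs come from mitochondrial DNA, whereas every ribosomal protein is encoded in the nucleus, made in the cytosol and imported. The small subunit reads the messenger RNA, and the large subunit joins the amino acids and threads the new chain through an exit tunnel towards the inner membrane. Many members descend from bacterial ribosomal proteins and others are found only in mitochondria. Heart muscle depends heavily on this system, and human variants in several members (MRPL3 and MRPL44 among them) cause cardiomyopathy.

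The count table held 30639244 to 38078137 counts per 915 library and 36799845 to 40010826 per DMSO library. Levels are given in CPM, counts divided by a total per library and set to one common scale, in which 3 counts correspond to 0.0738 to 0.0917 CPM in 915 libraries and 0.0698 to 0.0759 CPM in DMSO libraries, for counting error only. CPM does not correct for transcript length, so levels are compared between libraries and never between genes. Within each group the libraries differed beyond counting noise, with a chi-square over its degrees of freedom of 5.46 to 11.6, so none was counted as a copy of another. This says nothing of whether they are biological or technical replicates.

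Most mitochondrial ribosomal protein transcripts were modestly higher with 915, in both subunits. Of the 74 genes, 58 (78.4%) were higher and 0 were lower by edgeR's quasi-likelihood test at a Benjamini-Hochberg adjusted p under 0.05 over all genes tested. Over all 14253 genes tested, 24.3% were called higher and 25.5% lower. At an unadjusted p under 0.05, 63 members were higher and 1 was lower, and DESeq2 called 56 higher and 0 lower. The median log2 fold change was 0.30 (1.23-fold) over the 74 genes, beside -0.01 over all genes tested. Fold changes here are 915 over DMSO, relative to library totals scaled by edgeR's TMM factors. In these bulk samples, fewer cells of a type and less RNA per cell cannot be told apart.

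The sign was shared more widely than the calls were. The log2 fold change was above 0 in 71 genes and below 0 in 3 (Mrpl33, Mrps27 and Mrps21l, named after their values were seen). In 55 genes all 915 libraries lay above all DMSO libraries, a pattern seen in 23.9% of all genes tested. In 1 gene, Mrps27, all 915 libraries lay below all DMSO libraries, which 32.8% of all genes tested showed. In the other 18 the groups overlapped. All 74 genes passed the filter on low counts, and Mrpl1 passed it only through its 915 libraries. Among the 72 genes with a mean of at least 1 CPM, which leave out Mrpl1 and Mrps21l, 57 were called higher and 0 lower. In 54 of the 72 all 915 libraries lay above all DMSO libraries.

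**Figure D1:**
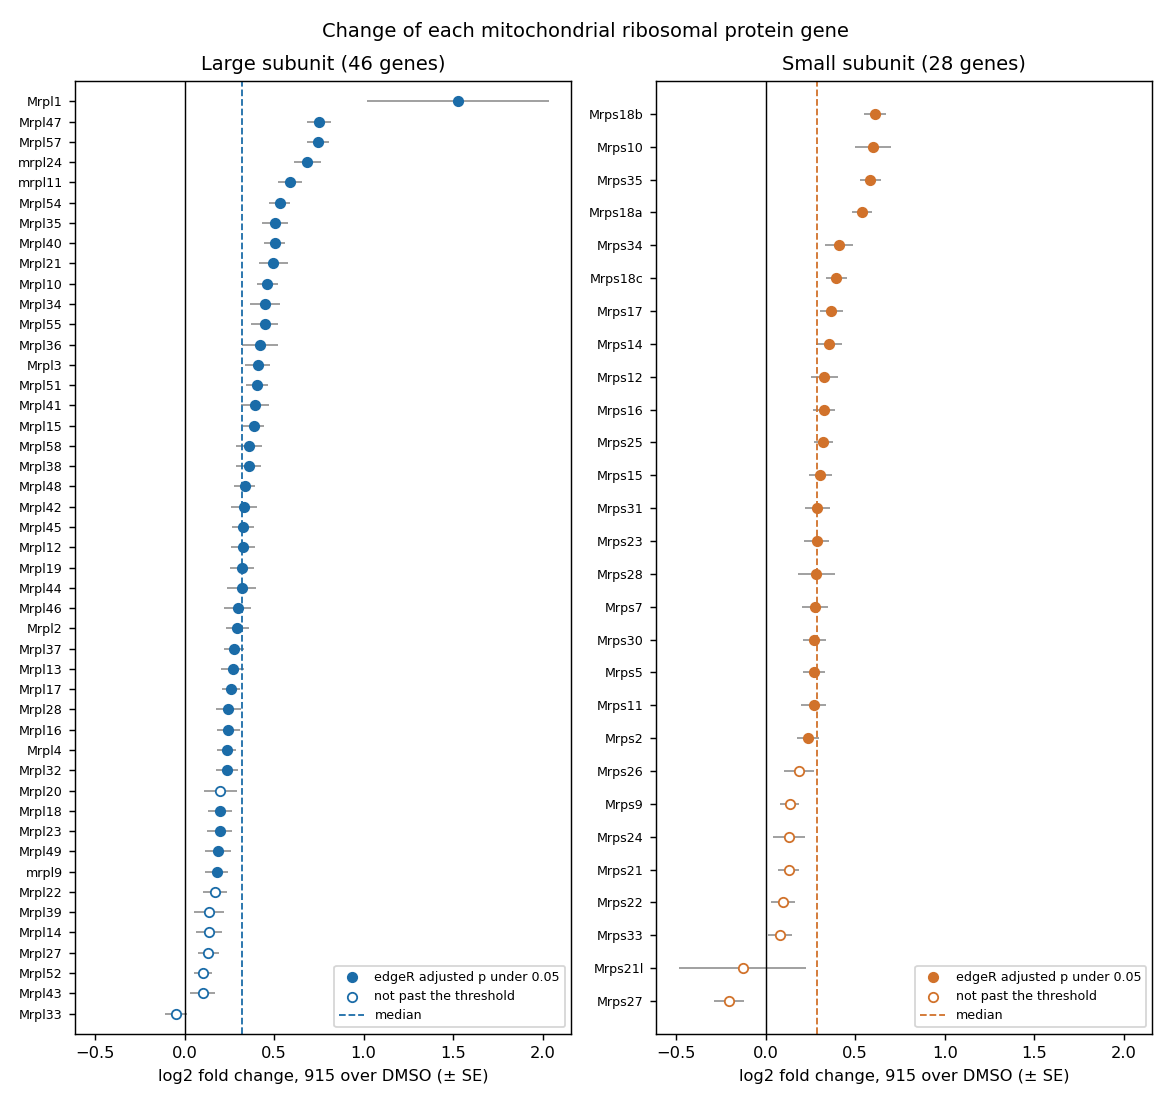
Log2 fold change (915 over DMSO) of each of the 46 large-subunit and 28 small-subunit genes, one row per gene, with the standard error as a bar and the subunit's median as a dashed line. Filled points passed an edgeR adjusted p of 0.05, and the 58 filled points all lie right of 0, while the 16 open points gather at the bottom of each panel.

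Summed over the large-subunit genes, the libraries held 2437, 2351 and 2458 CPM with 915, against 1941, 2107 and 2003 CPM with DMSO. Summed over the small-subunit genes, they held 1174, 1159 and 1224 CPM with 915, against 980.2, 1042 and 971 CPM with DMSO. All 915 libraries were above all DMSO libraries for both sums, and DMSO library 2 was the highest of its group for both. The mean sums were 1.20 times as high with 915 for the large subunit and 1.19 times for the small subunit. These ratios are of CPM as deposited. The TMM factors raise each gene's fold change by a median of 0.05 on the log2 scale over such a ratio, which is 1.03-fold.

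The balance between the subunits differed little. The large-subunit sum divided by the small-subunit sum was 2.08, 2.03 and 2.01 with 915, against 1.98, 2.02 and 2.06 with DMSO. The groups overlapped, and their means were 2.04 ± 0.04 with 915 and 2.02 ± 0.04 with DMSO (SD, n = 3 each). Because levels are not per length, the ratio has meaning only as a comparison between libraries, not as a count of proteins.

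**Figure D2:**
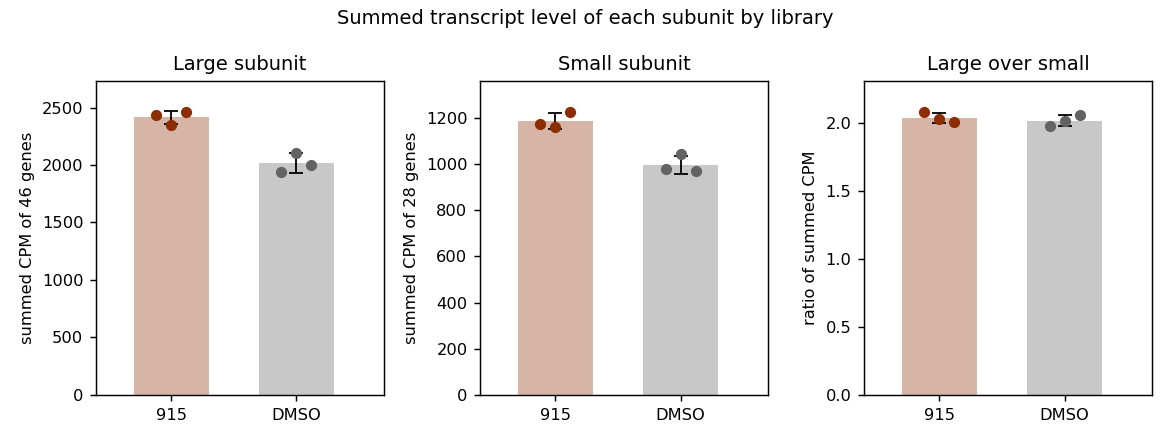
Summed CPM of the large-subunit genes and of the small-subunit genes, and the ratio of the 2 sums, with one point per library and the mean ± SD of each group as a bar. The large-subunit sums lie between 2351 and 2458 CPM with 915, above the DMSO range of 1941 to 2107 CPM, while the ratios of the groups overlap.

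The genes with the largest changes, among those with a mean of at least 5 CPM, came from both subunits. Mrpl47, whose protein lies by the mouth of the exit tunnel and has a bacterial counterpart, had 27.6, 28.8 and 29.2 CPM with 915, against 17.2, 17.5 and 17.8 CPM with DMSO. The groups were far apart, and the DMSO libraries were nearly equal (log2 fold change 0.75 ± 0.07 (SE), 1.68-fold, edgeR adjusted p = 4.97e-07). Mrpl57, a protein of the large subunit found only in mitochondria, had 49.3, 52.0 and 54.6 CPM with 915, against 33.3, 31.3 and 31.8 CPM with DMSO. Every 915 library was above every DMSO library (log2 fold change 0.74 ± 0.06 (SE), 1.67-fold, edgeR adjusted p = 2.09e-07). Mrpl24 (written mrpl24 in the table), another protein of the tunnel exit, had 39.5, 37.8 and 39.1 CPM with 915, against 23.6, 27.8 and 23.4 CPM with DMSO. Its 915 libraries were close together and DMSO library 2 was the highest of the others, without overlap (log2 fold change 0.69 ± 0.08 (SE), 1.61-fold, edgeR adjusted p = 4.04e-06). Mrpl11 (written mrpl11), at the base of the stalk that receives translation factors, had 38.8, 39.7 and 39.3 CPM with 915, against 25.5, 26.6 and 29.0 CPM with DMSO. The groups did not overlap (log2 fold change 0.59 ± 0.07 (SE), 1.50-fold, edgeR adjusted p = 4.86e-06).

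The genes placed at that stalk here all rose. They were Mrpl10, Mrpl11, Mrpl12 and Mrpl54, and 4 of 4 passed the edgeR test, beside 78.4% of all members. Their median log2 fold change was 0.50. Mrpl12 forms the flexible arm of the stalk and, in human cells, has also been found bound to mitochondrial RNA polymerase. It had 122, 122 and 138 CPM with 915, against 101, 114 and 99.9 CPM with DMSO. The groups were apart, with 915 library 3 highest and DMSO library 2 closest to the 915 libraries (log2 fold change 0.33 ± 0.07 (SE), 1.25-fold, edgeR adjusted p = 0.000960). Mrpl10, which anchors Mrpl12 to the ribosome, averaged 52.6 ± 2.58 CPM with 915 and 39.5 ± 1.10 CPM with DMSO (SD, n = 3 each). Mrpl54, found only in mitochondria, averaged 117 ± 7.73 CPM with 915 and 84.0 ± 3.57 CPM with DMSO (SD, n = 3 each). Both were higher in every 915 library than in any DMSO library, by 1.38-fold and 1.44-fold in edgeR.

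At the tunnel exit, where the new chain leaves the ribosome, 5 of 6 genes rose (Mrpl17, Mrpl23, Mrpl24, Mrpl45 and Mrpl47), with a median log2 fold change of 0.29 over the 6. The groups of Mrpl23 overlapped, and its call was lost under 7 of 12 other settings, the replicate block among them. Mrpl45, which in human cells holds the ribosome to the inner membrane, averaged 62.7 ± 2.33 CPM with 915 and 51.7 ± 3.23 CPM with DMSO (SD, n = 3 each). Its change was 1.25-fold, with no overlap between the groups. The sixth gene, Mrpl22, had 46.2, 43.6 and 39.9 CPM with 915, against 37.5, 40.7 and 40.9 CPM with DMSO. In it 915 library 3 lay below DMSO libraries 2 and 3, and it missed the threshold narrowly (log2 fold change 0.17 ± 0.07 (SE), 1.13-fold, edgeR adjusted p = 0.0502).

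The central protuberance is the crest of the large subunit, where it meets the small subunit and transfer RNA. Of its 8 genes here 6 rose (Mrpl18, Mrpl38, Mrpl40, Mrpl46, Mrpl48 and Mrpl58), and Mrpl27 and Mrpl52 did not pass the test. The groups of Mrpl18 overlapped, and its call was lost under 6 of 12 other settings, the replicate block among them. The median log2 fold change of the 8 was 0.32. Mrpl58, a peptidyl-tRNA hydrolase that became a fixed part of the mitochondrial ribosome, had 53.4, 47.9 and 49.6 CPM with 915, against 36.8, 43.2 and 41.5 CPM with DMSO. The groups did not overlap (log2 fold change 0.36 ± 0.07 (SE), 1.28-fold, edgeR adjusted p = 0.000785). Mrpl40 had the largest change of the 8, at 1.42-fold, with 39.9 ± 1.07 CPM with 915 and 29.1 ± 0.378 CPM with DMSO (SD, n = 3 each).

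Of 3 members tied to human heart disease, Mrpl3 and Mrpl44 rose and Mrps22 did not pass the test. Mrpl3, which sits near the site of peptide bond formation, had 67.7, 64.8 and 70.7 CPM with 915, against 48.1, 56.1 and 54.4 CPM with DMSO. Mrpl44, a protein with a ribonuclease III fold, had 34.2, 31.3 and 36.7 CPM with 915, against 26.0, 30.6 and 28.3 CPM with DMSO. In both genes all 915 libraries were above all DMSO libraries, although for Mrpl44 the lowest 915 library and the highest DMSO library were close. The edgeR log2 fold change was 0.41 ± 0.07 for Mrpl3 (SE, adjusted p = 0.000182). It was 0.32 ± 0.08 for Mrpl44 in the same fit (SE, edgeR adjusted p = 0.00432). Mrps22, a small-subunit protein whose human variants also affect the heart, had 31.1, 30.5 and 31.0 CPM with 915, against 31.7, 27.2 and 30.8 CPM with DMSO. The groups overlapped, although DMSO library 2 lay below every 915 library. Mrps22 did not pass the test (log2 fold change 0.10 ± 0.07 (SE), 1.07-fold, edgeR adjusted p = 0.257). Without DMSO replicate 2 its log2 fold change was 0.04.

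Among the Mrps genes, the 3 paralogs of bacterial protein S18 were all higher. Mrps18b had 57.9, 57.2 and 58.3 CPM with 915, against 37.2, 42.4 and 37.8 CPM with DMSO. Mrps18a had 61.9, 57.5 and 60.4 CPM with 915, against 42.3, 44.0 and 42.0 CPM with DMSO. Mrps18c had 38.7, 40.9 and 39.3 CPM with 915, against 31.3, 31.9 and 30.3 CPM with DMSO. In each paralog the 915 libraries lay above the DMSO libraries with a clear gap. The log2 fold change was 0.61 ± 0.06 for Mrps18b, 0.54 ± 0.06 for Mrps18a and 0.40 ± 0.06 for Mrps18c (SE), with edgeR adjusted p-values of 2.3e-06, 2.52e-06 and 7.96e-05 in that order. In mammalian structures Mrps18a is built into the large subunit despite its name, while Mrps18b and Mrps18c are in the small one.

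Other small-subunit genes that rose covered a range. Mrps10, with a bacterial counterpart in the head of the subunit, had 18.0, 22.0 and 22.8 CPM with 915, against 13.5, 15.6 and 13.7 CPM with DMSO. The 915 libraries varied more than for the genes above and 915 library 1 was the lowest of them, yet the groups did not overlap (log2 fold change 0.60 ± 0.10 (SE), 1.52-fold, edgeR adjusted p = 0.000188). Mrps34, found only in mitochondria and linked in humans to Leigh syndrome, had 52.8, 50.1 and 59.3 CPM with 915, against 40.8, 46.4 and 39.1 CPM with DMSO. DMSO library 2 came nearest to the 915 libraries, without overlap (log2 fold change 0.41 ± 0.08 (SE), 1.33-fold, edgeR adjusted p = 0.000609). Mrps30, which like Mrps18a sits in the large subunit in mammalian structures, had 42.2, 39.7 and 41.3 CPM with 915, against 33.4, 37.1 and 35.1 CPM with DMSO. It showed no overlap and a smaller change (log2 fold change 0.27 ± 0.06 (SE), 1.21-fold, edgeR adjusted p = 0.00259). Mrps12, part of the decoding centre, averaged 39.0 ± 2.56 CPM with 915 and 32.2 ± 2.58 CPM with DMSO (SD, n = 3 each), a change of 1.25-fold.

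The 16 genes that did not pass the test were 8 of the large subunit (Mrpl14, Mrpl20, Mrpl22, Mrpl27, Mrpl33, Mrpl39, Mrpl43 and Mrpl52) and 8 of the small subunit (Mrps9, Mrps21, Mrps21l, Mrps22, Mrps24, Mrps26, Mrps27 and Mrps33). Their groups overlapped in 14 of the 16, the exceptions being Mrps9 and Mrps27. In Mrpl14, Mrpl20, Mrpl27, Mrpl39, Mrps21, Mrps24 and Mrps26 the log2 fold change lay between 0.13 and 0.20 (edgeR adjusted p = 0.0815 to 0.258). Mrps9 had 62.2, 59.6 and 62.8 CPM with 915, against 56.8, 57.8 and 59.5 CPM with DMSO. Its 915 libraries were all above its DMSO libraries by a small margin (log2 fold change 0.13 ± 0.05 (SE), 1.10-fold, edgeR adjusted p = 0.0522). Mrpl52, a central protuberance protein, had 112, 105 and 113 CPM with 915, against 103, 109 and 105 CPM with DMSO, with 915 library 2 inside the DMSO range (log2 fold change 0.10 ± 0.05 (SE), 1.07-fold, edgeR adjusted p = 0.120). Mrpl43 had 45.1, 44.5 and 44.1 CPM with 915, against 38.8, 46.4 and 43.8 CPM with DMSO. DMSO library 1 was low and the other libraries were alike (log2 fold change 0.10 ± 0.07 (SE), 1.07-fold, edgeR adjusted p = 0.254).

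The lowest changes of genes with a mean of at least 5 CPM were in Mrps33, Mrpl33 and Mrps27. Mrps33 had 30.1, 30.2 and 32.7 CPM with 915, against 32.2, 28.8 and 30.2 CPM with DMSO. The groups overlapped (log2 fold change 0.08 ± 0.07 (SE), 1.06-fold, edgeR adjusted p = 0.352). Mrpl33, a small protein with a bacterial counterpart, had 80.6, 82.9 and 74.1 CPM with 915, against 78.2, 86.4 and 89.7 CPM with DMSO. DMSO library 1 lay inside the 915 range (log2 fold change -0.05 ± 0.06 (SE), 0.97-fold, edgeR adjusted p = 0.547). Mrps27, a protein with pentatricopeptide repeats, a fold that binds RNA, had 13.6, 14.5 and 15.6 CPM with 915, against 18.0, 17.7 and 16.3 CPM with DMSO. All 915 libraries were below all DMSO libraries, 915 library 3 by a small margin, and it just missed the threshold (log2 fold change -0.20 ± 0.08 (SE), 0.87-fold, edgeR adjusted p = 0.0588). Mrps27 was called lower without TMM factors and without 915 replicate 3, and under no other setting. Its adjusted p was 0.123 in DESeq2 and 0.113 in edgeR with the replicate block.

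**Figure D3:**
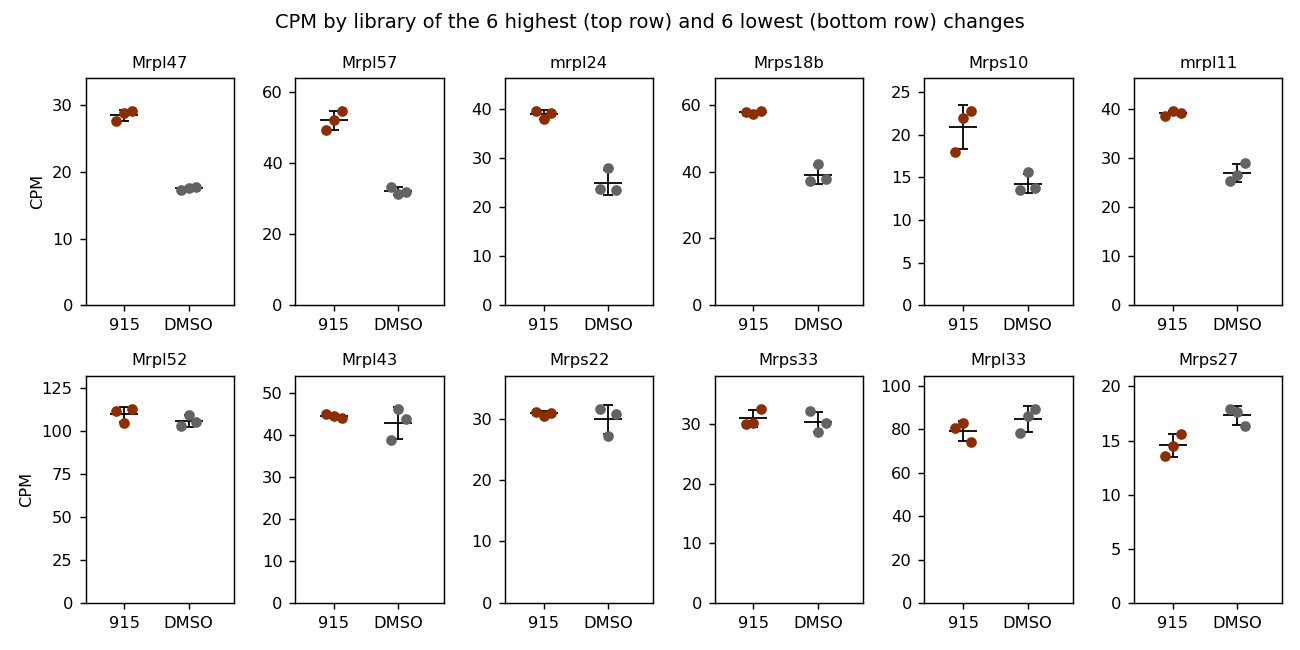
CPM per library of the 6 genes with the highest and the 6 with the lowest log2 fold changes among those with a mean of at least 5 CPM, with one point per library and the mean ± SD of each group as a bar, on axes that start at 0. In the top row the 915 points lie above the DMSO points in every gene, and in the bottom row the groups overlap except in Mrps27, where the 915 points are lower.

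A pair of members had few counts in every library. Mrpl1, whose bacterial counterpart lies at the stalk through which used transfer RNA leaves, had 16, 18 and 14 counts with 915, against 3, 11 and 5 counts with DMSO. The 915 libraries were above the DMSO libraries, and the fold change, the largest of all members, had a wide error (log2 fold change 1.53 ± 0.51 (SE), 2.88-fold, edgeR adjusted p = 0.0221). Its call was lost under 6 of the 11 other settings in which it was tested. Mrps21l, a gene with a name like that of Mrps21, had 26, 12 and 23 counts with 915, against 24, 22 and 30 counts with DMSO. The groups overlapped (log2 fold change -0.13 ± 0.36 (SE), 0.91-fold, edgeR adjusted p = 0.785), and the sign turned without 915 replicate 2 or DMSO replicate 3. Reads of near-identical copies may be split or lost for such genes, since the sources used here do not give how the authors counted reads with several matches.

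The subunits were close in the size and the spread of their changes. In the large subunit 38 of 46 genes rose (82.6%), and in the small subunit 20 of 28 (71.4%). Among genes with a mean of at least 1 CPM these counts were 37 of 45 and 20 of 27. The median log2 fold change was 0.32 in the large subunit and 0.28 in the small subunit, a difference of 0.04. Computed within each library, this difference varied between replicates by 0.02. In the refit without 915 replicate 1 the difference of the medians was -0.01. That difference kept its sign in the refits without any other library. The interquartile range was 0.23 in the large subunit and 0.18 in the small subunit. With Mrps18a and Mrps30 moved to the large subunit, where mammalian structures place them, 40 of 48 and 18 of 26 genes rose, with medians of 0.32 and 0.28.

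Among the genes the changes lay in a narrower band than over all genes tested. The interquartile range over the 74 genes was 0.21 on the log2 scale, beside 0.55 over all genes tested, and a gene's own standard error had a median of 0.07. The band was not particular to these genes. The range was 0.14 in cytosolic ribosomal proteins and 0.18 in nuclear respiratory chain and ATP synthase genes. It was 0.22 in assembly genes and 0.24 in translation factors of the mitochondrial ribosome. The standard deviation of the changes was 0.23, and 0.17 over the 72 genes with a mean of at least 1 CPM. Within 0.1 log2 units of the group's median lay 34 genes. At least 1.5-fold higher were 8 genes (5 large and 3 small), between 1.25-fold and 1.5-fold were 25 (18 large and 7 small), and below 1.25-fold were 41 (23 large and 18 small). The 8 include Mrpl1, which passed the filter on low counts only through its 915 libraries.

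Genes of both origins rose in both subunits. Among proteins with a bacterial counterpart, 24 of 29 in the large subunit rose (median log2 fold change 0.30) and 14 of 17 in the small subunit (0.31). The 24 include Mrpl1, with its few counts. Among those found only in mitochondria, 14 of 17 in the large subunit rose (0.33) and 6 of 10 in the small subunit (0.28). Differences between these classes were not tested, since genes are not replicates. The remaining gene, Mrps21l, was put in neither class.

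The libraries of a group did not move as one. Relative to the mean of the DMSO libraries, the median member stood at log2 values of 0.30, 0.28 and 0.34 in 915 libraries 1 to 3, against -0.06, 0.08 and -0.02 in DMSO libraries 1 to 3. DMSO library 2 was the highest of its group for 48 of the 74 genes, and for 12 of the 18 genes with overlapping groups. Without it, 64 members were called higher in edgeR, the 58 and also Mrpl14, Mrpl20, Mrpl22, Mrps21, Mrps24 and Mrps26. With each of the other 5 libraries left out in turn, 52 to 57 were called higher.

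Some mitochondrial ribosomal proteins carry other symbols. Of 5 such genes listed, 4 matched a row of the table. In edgeR, in DESeq2 and at an unadjusted p under 0.05, 2 of the 4 rose and 0 fell. The edgeR shares over all genes tested were 24.3% higher and 25.5% lower. Gadd45gip1, a large-subunit protein by the tunnel exit, averaged 71.2 ± 3.06 CPM with 915 and 61.8 ± 3.70 CPM with DMSO (SD, n = 3 each). Chchd1, of the small subunit, averaged 44.5 ± 4.02 CPM with 915 and 37.3 ± 2.98 CPM with DMSO. The log2 fold change was 0.26 for Gadd45gip1 (edgeR adjusted p = 0.003) and 0.30 for Chchd1 (edgeR adjusted p = 0.00545). Dap3 and Ptcd3, both of the small subunit, differed by log2 fold changes of 0.07 each and did not pass the test (edgeR adjusted p = 0.335 and 0.387).

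Most listed genes that build the mitochondrial ribosome and work with it were also higher. For comparison, edgeR called 24.3% of all genes tested higher and 25.5% lower. Of 29 assembly and ribosomal RNA processing genes listed, Mtg2, Rbfa, Tfb1m and Fastkd5 matched no row. Of the 25 tested, 16 rose and 0 fell in edgeR, with a median log2 fold change of 0.28. At an unadjusted p under 0.05 these counts were 16 and 0, and DESeq2 called 13 higher and 0 lower. The genes named here had the 3 smallest p-values of their list. Fastk, a founder of a family that handles mitochondrial RNA, was 1.33-fold higher. Mrm3, which methylates the large ribosomal RNA, was 1.77-fold higher, and Mtg1, a GTPase of large-subunit assembly, was 1.397-fold higher. The log2 fold change was below 0 in 3 genes that did not pass the test, Mrm2 (-0.11), Ybey (-0.12) and Mterf3 (-0.04). Of 20 translation factors and messenger RNA handling genes tested, 15 rose and 0 fell in edgeR, with a median of 0.30. At an unadjusted p under 0.05, 16 were higher and 0 lower, and DESeq2 called 15 higher and 0 lower. Lrpprc, which protects mitochondrial messenger RNAs, was 1.37-fold higher. Gfm2, which splits the subunits after translation, was 1.46-fold higher, and Guf1, a GTPase that binds these ribosomes, was 1.39-fold higher. The log2 fold change was below 0 in 2 genes that did not pass the test, Mtif3 (-0.02) and a gene listed as RGD1563482 (-0.29).

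The median change of the mitochondrial ribosomal proteins, 0.30, lay between those of the respiratory chain and of the cytosolic ribosome. Of 80 tested nuclear genes for respiratory chain or ATP synthase subunits, 74 rose and 3 fell (Cox6b2, Cox4i2 and Ndufa4l2, named after their values were seen), and the log2 fold changes had a median of 0.43 and an interquartile range of 0.18. Of 79 cytosolic ribosomal protein genes tested, 3 rose (Rps25, Rpsa and Rpl4) and 31 fell, with a median of -0.15 and an interquartile range of 0.14. All 915 libraries lay above all DMSO libraries in 0 of the 79, so the groups of those 3 overlapped. They lay below in 46 of the 79. These patterns were seen in 23.9% and 32.8% of all genes tested. The cytosolic genes are counted by Ensembl identifier, 80 with only 71 symbols, so they are not all distinct proteins. Some repeats were low, such as an Rpl39 gene called lower at means of 1.49 CPM with 915 and 2.93 CPM with DMSO. Reads of near-identical copies may be split or lost here too. Of the 13 protein genes of mitochondrial DNA, which mitochondrial ribosomes translate, 8 rose and 1 fell (Mt-atp8), with a median of 0.28. The groups of Mt-atp8 overlapped. All these medians stand beside -0.01 over all genes tested, of which 24.3% were called higher and 25.5% lower. Differences between the groups were not tested.

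**Figure D4:**
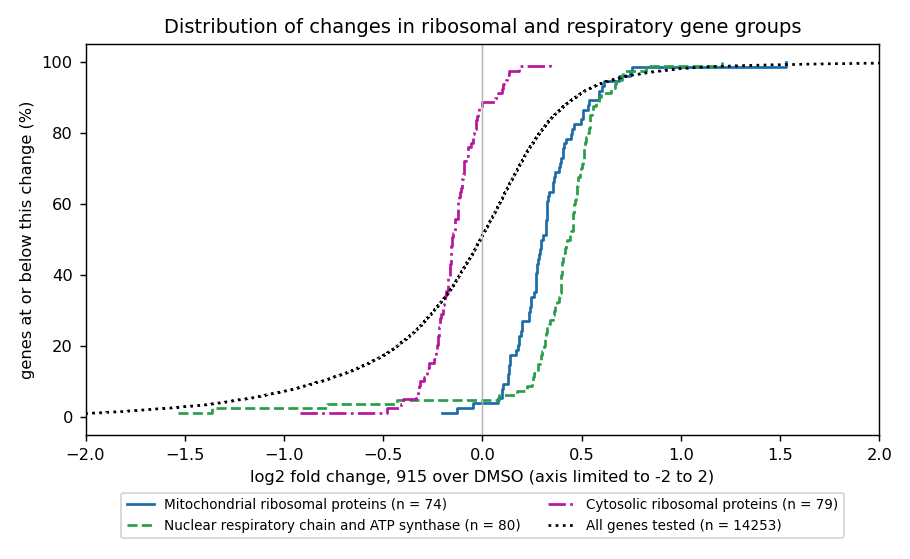
Cumulative share of genes (%) at or below each log2 fold change (915 over DMSO) for 74 mitochondrial ribosomal protein genes, 80 nuclear respiratory chain and ATP synthase genes, 79 cytosolic ribosomal protein genes and all 14253 genes tested. Genes are counted by Ensembl identifier, and some cytosolic symbols recur. The mitochondrial ribosomal line rises steeply around 0.30, left of the respiratory line at 0.43 and right of the cytosolic line at -0.15.

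The promoters of 4 members are printed because their genes mark the ends of the range or carry a motif discussed here. They are from RefSeq on the rat build GRCr8, which is later than the build of the counts, and run from 250 bases before the gene's start to 50 bases after it, in the direction of the gene. Capitals mark matches to the motifs searched, on either strand.
Mrpl47 (chr2:117447312-117447611, minus strand): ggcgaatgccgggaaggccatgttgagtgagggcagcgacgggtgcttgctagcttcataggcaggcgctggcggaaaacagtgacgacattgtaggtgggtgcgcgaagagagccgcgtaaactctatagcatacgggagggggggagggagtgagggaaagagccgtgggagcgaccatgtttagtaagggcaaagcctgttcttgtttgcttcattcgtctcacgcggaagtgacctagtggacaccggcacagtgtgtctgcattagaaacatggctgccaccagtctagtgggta
Mrps18b (chr20:2842756-2843055, plus strand): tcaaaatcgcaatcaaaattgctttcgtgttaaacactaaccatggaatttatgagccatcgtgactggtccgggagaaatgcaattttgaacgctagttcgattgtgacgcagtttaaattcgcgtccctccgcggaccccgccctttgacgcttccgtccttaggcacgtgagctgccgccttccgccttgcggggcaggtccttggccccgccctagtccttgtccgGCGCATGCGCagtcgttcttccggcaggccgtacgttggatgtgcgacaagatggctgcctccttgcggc
Mrps18a (chr9:22367331-22367630, minus strand): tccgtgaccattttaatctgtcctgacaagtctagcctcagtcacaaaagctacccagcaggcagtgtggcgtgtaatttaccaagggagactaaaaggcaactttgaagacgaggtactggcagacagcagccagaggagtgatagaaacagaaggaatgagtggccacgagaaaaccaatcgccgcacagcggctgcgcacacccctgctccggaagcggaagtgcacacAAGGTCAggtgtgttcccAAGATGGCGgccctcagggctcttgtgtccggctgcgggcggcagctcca
Mrps27 (chr2:32473954-32474253, plus strand): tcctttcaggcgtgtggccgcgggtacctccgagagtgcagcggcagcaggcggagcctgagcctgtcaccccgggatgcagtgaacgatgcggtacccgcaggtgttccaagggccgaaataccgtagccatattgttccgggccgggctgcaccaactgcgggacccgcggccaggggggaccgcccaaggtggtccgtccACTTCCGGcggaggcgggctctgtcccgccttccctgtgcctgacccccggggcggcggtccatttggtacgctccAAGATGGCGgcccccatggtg

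The motifs were searched on both strands of these windows, and a match is a description of letters, not a bound site. A window was at hand for 59 of the 74 members and for 10896 genes tested. The full ERR motif, TCAAGGTCA, was found in 0 of the 59 windows and in 0.257% of all genes tested, and its core, AAGGTCA, in 3 (5.08%, Mrps15, Mrps18a and Mrps21) and in 3.31% of all genes tested. The full motif contains the core, so the matches overlap. The core of the NRF1 motif, GCATGCGC, was in 5 windows (8.47%) and in 4.83% of all genes tested. An ETS motif, CCGGAAGT, was in 7 (11.9%) and in 7.63% of all genes tested. A YY1 motif, AAGATGGCG, was in 8 (13.6%) and in 3.25% of all genes tested.

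The median change of members with a motif is given beside that of members without it, as a description. The median log2 fold change was 0.31 with the ERR core and 0.30 without, 0.26 with the NRF1 core and 0.30 without, and 0.31 with the YY1 motif and 0.30 without. For the ETS motif it was 0.18 with and 0.30 without. Of the promoters printed above, Mrps18a, 1.45-fold higher, held the ERR core and the YY1 motif a few bases apart. Mrps18b, 1.53-fold higher, held the NRF1 core on both strands, in overlapping letters. Mrps27, with the lowest change of all members, held an ETS and a YY1 motif, and Mrpl47, with the highest change among genes of at least 5 CPM, held none of the 5.

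Some members start close to a gene that runs the other way. Head-to-head neighbours were taken as genes on opposite strands with starts at most 1000 bases apart. They were found for 17 of the 59 members with a promoter window. The distance was chosen after the data were seen. Of the 17 neighbours 14 were tested, and 6 rose, 1 fell and 7 did not pass the test. Among all genes tested, the shares called higher and lower were 24.3% and 25.5%. Mrpl46 and Mrps11, both members, are each other's neighbour, with starts 234 bases apart. Both rose, so this pair is counted from both sides among the 6.

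The highest of these members, Mrpl47, neighbours Ndufb5, a subunit of respiratory complex I, whose starts are 244 bases apart. Ndufb5 had 219, 207 and 206 CPM with 915, against 128, 141 and 132 CPM with DMSO. All 915 libraries were above all DMSO libraries, as in Mrpl47 (log2 fold change 0.71 ± 0.05 (SE), 1.63-fold, edgeR adjusted p = 7.93e-08). Mrps27, the lowest member, neighbours Ptcd2, a mitochondrial protein with pentatricopeptide repeats. Ptcd2 had 11.1, 11.2 and 10.3 CPM with 915, against 9.52, 9.68 and 8.98 CPM with DMSO. The groups did not overlap and Ptcd2 rose, opposite in sign to Mrps27 (log2 fold change 0.26 ± 0.09 (SE), edgeR adjusted p = 0.0354). The neighbour that fell was Eme1, a DNA repair gene beside Mrpl27, with 1.60, 1.19 and 1.60 CPM with 915, against 3.35, 2.77 and 2.73 CPM with DMSO. Its 915 libraries were all lower (log2 fold change -0.96 ± 0.20 (SE), edgeR adjusted p = 0.00136). Reads near such shared starts could have been assigned to either gene, since the use of strand in counting is not given in the sources used here.

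**Figure D5:**
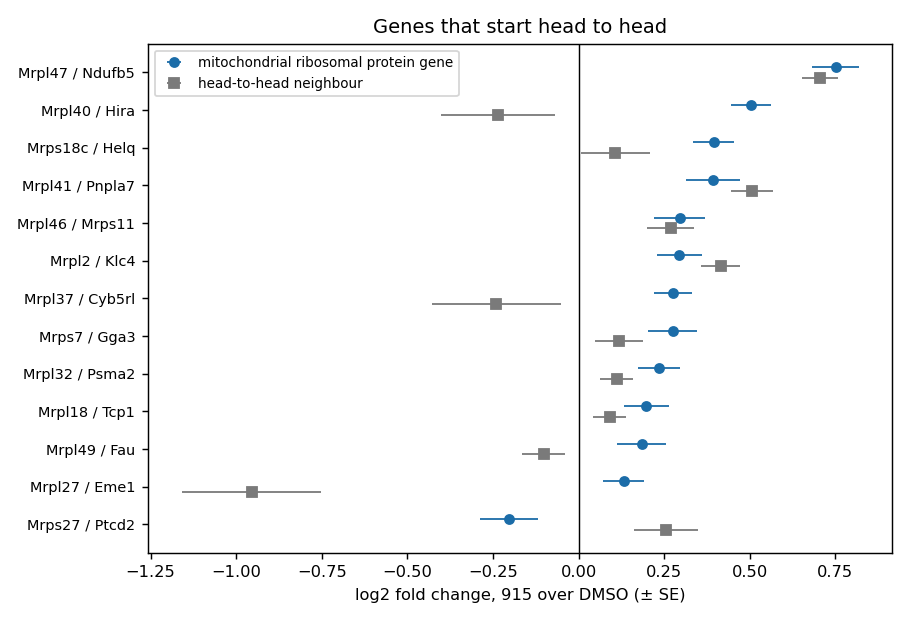
Log2 fold change (915 over DMSO, ± SE) of members and of the tested genes that start head to head with them, one row per pair. The points of Mrpl47 and Ndufb5 lie together near 0.7, while Eme1 lies far left of Mrpl27.

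Markers of the cell types in the dish differed between the same groups. For comparison, 24.3% of all genes tested were called higher and 25.5% lower. All 10 cardiomyocyte markers rose, by a median of 0.60 on the log2 scale, with sums of 31181 to 31795 CPM with 915, against 21688 to 22910.4 CPM with DMSO. Of 10 fibroblast markers 7 fell and 2 rose (Dcn and Pdgfra), with sums of 13487 to 14299 CPM with 915, against 25505 to 26586 CPM with DMSO. Of 8 smooth muscle and pericyte markers listed, Myh11 and Acta2 matched no row. The others fell in 5 of 6, with sums of 738 to 790.3 CPM with 915, against 1770 to 1909 CPM with DMSO. Of 7 endothelial markers 4 fell and 1 rose, with sums of 56.5 to 57.3 CPM with 915, against 70.8 to 74.1 CPM with DMSO. Pecam1, also listed, matched no row. Of 9 macrophage markers 4 fell and 0 rose, with sums of 119 to 144 CPM with 915, against 223 to 241 CPM with DMSO. The 1 erythroid marker in the table, Alas2, was at 0.0984 to 0.214 CPM with 915, against 0.0759 to 0.747 CPM with DMSO, and was not tested. Cell cycle genes fell in 6 of 6, with sums of 70.3 to 80.4 CPM with 915, against 261 to 304 CPM with DMSO. Top2a and Ccnb1, also listed, matched no row. No marker was at 0 in all libraries. Their part in the higher ribosomal protein transcripts was not tested.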

How the data were processed

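RNA sequencing of 3 libraries per group was used. The submitters' processing notes name STAR 2.5.1a, Subread and featureCounts 1.4.6-p5 and the rat build Rnor_6.0. How strand and reads with several matches were handled is not given in the sources used here. The authors deposited a table of raw counts and a table of CPM, which divides those counts by a total per library; the counts kept 93.1% to 93.7% of these totals. Of 22641 rows, 993 repeated an Ensembl identifier and were dropped.

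The counts were fitted with edgeR 4.0.16 (R 4.3.3): filterByExpr (14253 genes kept), TMM factors, and the quasi-likelihood test on group alone. Tests were two-sided, and p-values were adjusted by Benjamini-Hochberg across every gene tested, with calls at 0.05. The biological coefficient of variation was 6.84%. Levels and the overlap of groups are from CPM as deposited. Depth was 30639244 to 40010826 counts per library, and floors cover counting error only.

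The members and all lists were chosen with earlier results of these data known. Genes named were the 6 highest and 6 lowest changes among members with a mean of at least 5 CPM and a set named regardless of values (Mrpl3, Mrpl12, Mrpl44, Mrpl57, Mrpl58, Mrps18a, Mrps18b, Mrps18c, Mrps22, Mrps30, Mrps34), with values, and all members not called, by symbol. Of the assembly and translation lists, the 3 genes with the smallest p were named; those below 0 were named after their values were seen. Other members given with values (Mrpl1, Mrpl10, Mrpl22, Mrpl40, Mrpl45, Mrpl54, Mrps9, Mrps12 and Mrps21l) and the head-to-head neighbours were chosen after their values were seen. Mrps36 was not analysed here. Alternatives were DESeq2 1.42.0, RLE factors or none, other filters, a replicate block, a threshold of 0.01 and leaving out each library. Promoter windows came from RefSeq on GRCr8, matched by symbol or gene ID for 59 of 74 members.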

Additional observations from a re-analysis of the deposited data

How the results depend on the processing

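Of the 58 members called higher, 52 were called higher under each of 12 other settings. The call was lost in 5 settings for Mrpl9, in 6 for Mrpl1, Mrpl18 and Mrps28, and in 7 for Mrpl23 and Mrpl49. DESeq2 called 56 members higher, RLE factors 60, no TMM factors 53, no filter on low counts 59 and an adjusted p under 0.01 52. Without TMM factors 1 member, Mrps27, was called lower, and the medians were 0.24 over all members, 0.27 in the large subunit and 0.23 in the small subunit, beside -0.07 over all genes. The SD of the changes was 0.17 with a filter of at least 1 CPM in 3 libraries, and also without the members under 1 CPM, an alternative chosen after seeing the data. Both leave out Mrpl1 and Mrps21l. With each library left out in turn, the genes changed numbered 6071 to 7047, the members higher 52 to 64 and the members lower 0 to 1 (1 without 915 replicate 3). In these fits the median was 0.28 to 0.33 over all members, 0.29 to 0.36 in the large subunit and 0.26 to 0.32 in the small subunit, and the SD was 0.21 to 0.28, highest without DMSO replicate 2. The large minus small difference ran from -0.010 to 0.038, and was -0.01 without 915 replicate 1; the cause was not tested. Mrps21l, at 12 to 30 counts, ran from -0.33 without 915 replicate 1 to 0.069 without 915 replicate 2, and was 0.044 without DMSO replicate 3.

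Libraries with the same replicate number had correlations of -0.034, -0.111 and -0.09 between their deviations from the group means. No library correlated best with its own number, and all correlations lay between -0.111 and 0.091. Such values cannot tell whether libraries shared a cell isolation or a day, because deviations within a small group are tied to each other. With the replicate block, 53 members were called higher and 0 lower, all 53 among the 58, and 6193 genes were changed.

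The number of libraries limits the precision of each change, and Mrpl1 and Mrps21l are also limited by depth. The Mrps36 alternative planned for the small subunit was not run, because no row carries that symbol.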
